A study of Homo sapiens with 6 samples.

Results

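The 10 genes described here are 7 that encode FOS and JUN proteins (*FOS*, *FOSB*, *FOSL1*, *FOSL2*, *JUN*, *JUNB* and *JUND*) and 3 further genes known for rapid induction (*EGR1*, *IER3* and *KLF6*). They were chosen by symbol, and all 10 were found among the 17177 genes of the deposited table. NCI-H660 is an established cell line of neuroendocrine prostate cancer (NEPC), with a genotype given as WT, and its cells received either pyrvinium pamoate (PP), an anthelmintic drug that the study tested as an inhibitor of the RNA-binding protein ELAVL3, or PBS as the control. RNA was profiled on day 3, with 3 libraries for each treatment. No dose of PP is given in the labels, and a single line of cells in culture was the only model. The question asked of these genes was how their transcript levels differed between PP and PBS.

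Immediate early genes are transcribed within minutes of a stimulus, before new protein has been made, and most of their transcripts are short-lived. The mitogen-activated protein kinases (MAPKs) ERK, JNK and p38 phosphorylate factors that already sit on their promoters, such as ELK1 beside SRF. FOS and JUN proteins then pair through a leucine zipper to form AP-1, which binds DNA at the sequence TGAGTCA or TGACTCA. JUN proteins can pair with each other, whereas FOS proteins need a JUN partner. In tumour cells AP-1 is known for its part in growth, invasion and the response to stress.

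With PP, *JUN*, *JUND*, *FOS* and *FOSL2* rose by 1.36-fold to 1.495-fold and *KLF6* by 2.85-fold, while *JUNB* and *EGR1* fell to 0.807 and 0.529 times the PBS mean. *FOSB*, *FOSL1* and *IER3* were near the floor of detection under both treatments. Of the 10 genes, 7 had a mean of at least 1 FPKM (fragment counts scaled to gene length and to the depth of the library) and were tested, and all 7 differed at an adjusted p under 0.05 (limma on log2(FPKM + 1), Benjamini-Hochberg over 11726 genes), with 5 higher and 2 lower. Much of the transcriptome differed between the PP and PBS libraries, which no source used here describes as separate cultures. Among all genes tested, 72.5% passed that threshold, 38.1% as higher and 34.4% as lower. The 7 genes are therefore described by their sizes and directions, not by the number that passed. A stricter cutoff, P under 0.001 and an absolute log2 difference over 1, was reached by 5.18% of all genes, and *KLF6* was the 1 gene of the 7 that passed. The 3 PP libraries and the 3 PBS libraries did not overlap for any of the 7, and the same was true of 75% of all genes tested.

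A few facts of the libraries bear on these values. Whole counts could be recovered from the FPKM of 95.5% of genes and of every gene tested, and they came to between 29064154 and 32481049 per library, so the deepest library exceeded the shallowest by 11.8%. Counts differed between libraries of 1 treatment by more than sampling noise (chi-square over its degrees of freedom 3.37 to 7.07) and by far more between treatments (149 to 170.2). All 7 neuroendocrine markers examined were expressed. With PP, 5 of the 7 were lower and 1 was higher, and *CHGA*, which encodes the secretory granule protein chromogranin A, had a log2 fold change of -0.78. Fibroblast markers (6 genes) summed to 4.06 to 4.501 FPKM with PBS and 4.49 to 4.92 with PP, and immune markers (5 genes) to 2.79 to 3.12 and 2.19 to 2.94. *PTPRC*, which defines leukocytes, had 0 to 4 counts per library. The part of the fall in neuroendocrine markers in the results below was not tested. Each library averages over many cells, so fewer cells with a transcript and less transcript per cell cannot be told apart.

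**Figure D1:**
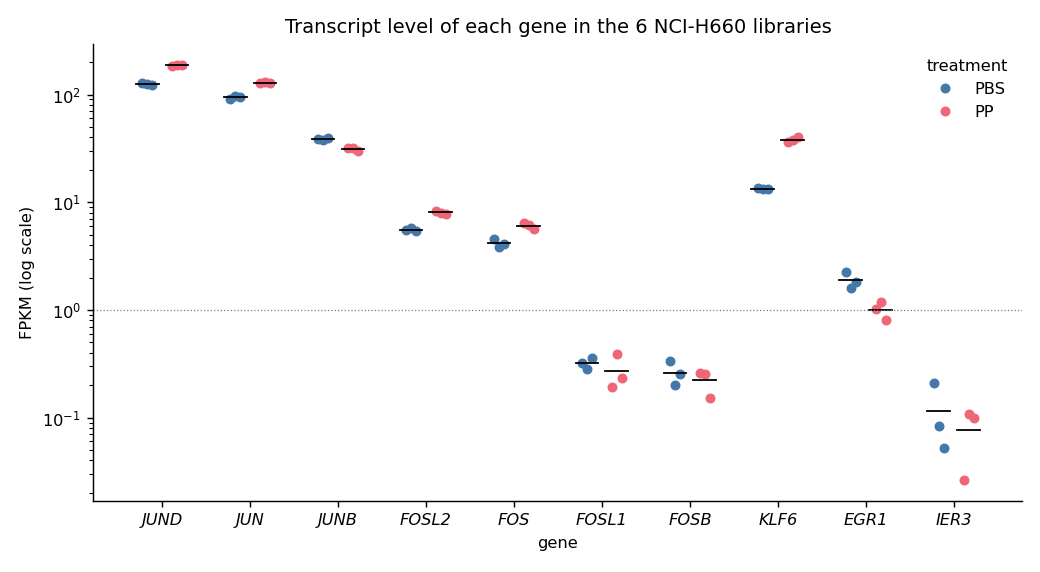
FPKM (log axis) of each of the 10 genes in the 3 PBS (blue) and 3 PP (red) libraries, with 1 point per library and a black bar at the mean; the dotted line marks the 1 FPKM needed for the main test. *JUND* and *JUN* had the highest levels under both treatments, *KLF6* moved from 13.4 to 38.1 FPKM, and the PBS and PP points of *FOSL1*, *FOSB* and *IER3* overlapped.

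The JUN genes supplied most of the AP-1 transcripts in these cells. *JUND*, which in many cell types is expressed steadily and is the least dependent on stimulation, had an FPKM of 128.0, 126.4 and 122.2 in PBS replicates 1, 2 and 3, and of 185.5, 189.2 and 188.3 in PP replicates 1, 2 and 3. Every PP library stood well above every PBS library. Its mean rose from 125.5 ± 2.98 to 187.7 ± 1.94 FPKM (SD, n = 3 each), and its log2 fold change on the log2(FPKM + 1) scale was 0.58 ± 0.03 (standard error; limma, adjusted p = 9.04e-08). *JUN*, the founding member of the family and the classical target of JNK, had an FPKM of 91.3, 96.8 and 94.9 with PBS and of 127.5, 130.3 and 126.9 with PP. Again the treatments did not overlap. The log2 fold change of *JUN* was 0.44 ± 0.03 (standard error; limma, adjusted p = 1.17e-06). *JUNB*, which often restrains JUN when the pair is expressed together, went the other way. Its FPKM was 38.7, 38.1 and 39.1 with PBS and 31.6, 31.7 and 30.2 with PP, so that all PP libraries lay below all PBS libraries. The log2 fold change was -0.30 ± 0.04 (standard error; limma, adjusted p = 3.76e-05). Between 1755 and 13550 counts per library stood behind the values of the 3 genes.

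The opposite directions of *JUN* and *JUNB* changed their ratio in every library. There were 2.36, 2.54 and 2.43 *JUN* transcripts per *JUNB* transcript (as FPKM, per length) with PBS and 4.04, 4.10 and 4.199 with PP. The ratio of *JUND* to *JUNB* was 3.31, 3.32 and 3.12 with PBS and 5.88, 5.96 and 6.23 with PP. *JUND* relative to *JUN* moved less, from 1.33 ± 0.0614 to 1.46 ± 0.0172 (SD, n = 3 each), without overlap. The summed FPKM of the 7 FOS and JUN genes was 268.9 ± 2.60 with PBS and 361.7 ± 3.68 with PP. Within that sum *JUN* held 35.1% ± 0.963 with PBS and 35.5% ± 0.138 with PP, ranges that overlapped. The share of *JUND* went from 46.7% ± 0.882 to 51.9% ± 0.450, and that of *JUNB* from 14.4% ± 0.322 to 8.62% ± 0.188. All 4 FOS genes together held 3.84% ± 0.135 with PBS and 4.04% ± 0.185 with PP, and these ranges overlapped. The larger sum with PP was thus made of relatively more *JUND* and less *JUNB*, with *JUN* at the same share within the spread of libraries. In the plot of shares the band of *JUNB* narrows in each PP library while that of *JUND* widens. These shares are a description of transcripts and give no amount of protein.

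The start regions of *JUN* and *JUND* are shown because each holds letters that match a known type of site for AP-1 or CREB/ATF proteins. RefSeq promoters (GRCh38.p14, 250 bases before to 50 after the annotated start) were held for 8 of the 10 genes and were searched on both strands for TGAGTCA or TGACTCA (the AP-1 site), TGACATCA (an AP-1 variant known from the *JUN* promoter), TGACGTCA (the cyclic AMP response element, CRE), the CArG box bound by SRF, GCGGGGGCG or GCGTGGGCG (the EGR site) and TGATGNAA (the C/EBP-ATF response element). *JUN* held TGACATCA from 67 to 60 bases before the start, as 2.61% of all 35116 promoters did at any position. *JUND* held TGACGTCA from 200 to 193 bases before the start, as 1.85% of all promoters did. The 250 bases before each start follow, 5′ to 3′ on the minus strand, with these matches in capitals. *JUN* lies at chr1:58784048-58784297 and *JUND* at chr19:18281623-18281872.
JUN: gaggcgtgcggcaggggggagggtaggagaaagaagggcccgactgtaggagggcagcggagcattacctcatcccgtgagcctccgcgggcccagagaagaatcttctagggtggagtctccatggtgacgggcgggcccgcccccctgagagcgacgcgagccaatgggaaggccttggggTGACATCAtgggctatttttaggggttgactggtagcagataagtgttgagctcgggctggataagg
JUND: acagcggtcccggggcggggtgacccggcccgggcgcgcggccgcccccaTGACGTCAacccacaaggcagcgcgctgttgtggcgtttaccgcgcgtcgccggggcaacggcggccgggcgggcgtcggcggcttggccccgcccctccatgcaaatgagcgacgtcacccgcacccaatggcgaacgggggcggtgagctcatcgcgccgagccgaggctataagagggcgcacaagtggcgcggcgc

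Among all 8 windows, 5 held at least 1 of these motifs, as 18.8% of all promoters did, and the 3 that held none were those of *FOS*, *FOSB* and *JUNB*. TGACATCA, known from the *JUN* promoter, was added to the search after seeing the data and was the only motif found in *JUN*. The match in *JUN* was thus given in advance, and the count of 5 is a description only. The window of *FOSL2* held TGACTCA 5 to 11 bases after the start, a site that 4.95% of all promoters had in one of its spellings. None of the 8 held TGATGNAA, which 3.62% of all promoters did. A match is no evidence of binding in these cells, and the absence of a match concerns these letters in this window only. The annotation places *JUN* on chromosome 1, *JUNB*, *JUND* and *FOSB* on chromosome 19, *FOS* on 14, *FOSL2* on 2, *FOSL1* on 11, *EGR1* on 5, *IER3* on 6 and *KLF6* on 10. *JUN*, *JUNB* and *JUND* also share a gene structure, since the canonical transcript of each has 1 exon, which was true of 1.99% of the tested genes with a value, and the *FOS* genes and *KLF6* have 4.

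FOS transcripts were far fewer. *FOS*, the prototype of the immediate early genes and the partner of JUN in classical AP-1, had an FPKM of 4.57, 3.84 and 4.12 with PBS and of 6.41, 6.09 and 5.70 with PP, on 237 to 298 counts with the former and 387 to 414 with the latter. All PP libraries exceeded all PBS libraries, by a margin larger than the spread within either treatment. The log2 fold change was 0.45 ± 0.07 (standard error; limma, adjusted p = 0.000165). *FOSL2* encodes FRA-2, a FOS protein without the strong activation domain of FOS. Its FPKM was 5.50, 5.83 and 5.38 with PBS and 8.38, 8 and 7.81 with PP, again without overlap. The log2 fold change of *FOSL2* was 0.46 ± 0.05 (standard error; limma, adjusted p = 2.24e-05), close in size to that of *FOS*, and the ratio of *FOSL2* to *FOS* was 1.34 ± 0.160 with PBS and 1.33 ± 0.0343 with PP (SD, n = 3 each).

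The other pair of FOS genes was barely expressed. *FOSL1*, which encodes FRA-1 and is often high in invasive carcinoma cells, had an FPKM of 0.323, 0.281 and 0.357 with PBS and of 0.191, 0.389 and 0.233 with PP, from 10 to 20 counts per library. *FOSB* had an FPKM of 0.334, 0.199 and 0.254 with PBS and of 0.259, 0.254 and 0.154 with PP, from 19 to 39 counts. In both genes the PBS and PP libraries were intermixed. When the fit was repeated over the 13771 genes with a mean of at least 0.1 FPKM, neither passed the threshold, and a difference was not detectable at this depth. The log2 fold change was -0.06 for *FOSL1* (95% interval -0.22 to 0.11, adjusted p = 0.514 from limma) and -0.05 for *FOSB* (95% interval -0.20 to 0.11, adjusted p = 0.577 from limma). These intervals are on the log2(FPKM + 1) scale, which compresses differences at such low levels. With limma-voom on the recovered counts the estimates were -0.30 for *FOSL1* and -0.26 for *FOSB*, with adjusted p of 0.592 and 0.572.

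*EGR1* and *KLF6*, both zinc finger genes, changed in opposite directions. *EGR1*, a zinc finger factor induced by ERK through SRF and ELK1, had an FPKM of 2.25, 1.60 and 1.82 with PBS and of 1.02, 1.18 and 0.798 with PP. Each PP library was below the lowest PBS library, although the PBS libraries themselves were spread more widely than those of the JUN genes. The counts were 147 to 219 with PBS and 82 to 112 with PP. *EGR1* had a log2 fold change of -0.53 ± 0.10 (standard error; limma, adjusted p = 0.000873). Because the gene is near the pseudocount of 1 FPKM, this scale understates the fall, and the value was -0.93 with limma-voom on recovered counts (adjusted p = 0.000111) and -0.86 with a pseudocount of 0.1 (adjusted p = 0.000989 from limma). Leaving out single libraries kept the estimate between -0.60 and -0.44.

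The start region of *EGR1* is shown for its matches to the CArG box, the type of site bound by SRF, which 1.29% of all promoters contained. The matches lie from 105 to 96 and from 83 to 74 bases before the start and are in capitals (GRCh38.p14, chr5:138465229-138465478, plus strand). Sequence farther upstream was not searched.
EGR1: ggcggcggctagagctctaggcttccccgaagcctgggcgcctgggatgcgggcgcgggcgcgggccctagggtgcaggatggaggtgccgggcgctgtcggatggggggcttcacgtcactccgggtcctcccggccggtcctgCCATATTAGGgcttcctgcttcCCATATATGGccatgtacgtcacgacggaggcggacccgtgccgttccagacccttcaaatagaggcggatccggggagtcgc

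*KLF6*, a Krüppel-like zinc finger factor described as a tumour suppressor in prostate cancer, had the largest change of the 7 genes tested. Its FPKM was 13.5, 13.4 and 13.3 in the PBS libraries and 36.5, 37.5 and 40.4 in the PP libraries. The PBS values were nearly identical, and every PP value stood far above them. Counts ran from 1801 to 1924 with PBS and from 5145 to 6071 with PP. *KLF6* had a log2 fold change of 1.44 ± 0.05 (standard error; limma, adjusted p = 1.71e-09), and leaving out single libraries kept it between 1.40 and 1.47. In size on the log2(FPKM + 1) scale it exceeded 98.3% of all tested genes, whereas the other 6 exceeded 54.3% (*JUNB*) to 81.6% (*JUND*). *EGR1* stood at 78.4%, which this scale understates at its low level. With limma-voom on recovered counts its estimate of -0.93 was larger in size than the 0.58 of *JUND*. The start region of *KLF6* is shown because it contains the same letters TGACATCA as that of *JUN*, from 172 to 165 bases before the start. It also held GCGGGGGCG from 65 to 57 bases before the start, as 5.77% of all promoters did in either spelling of the EGR site. Both are in capitals (GRCh38.p14, chr10:3785210-3785459, minus strand).
KLF6: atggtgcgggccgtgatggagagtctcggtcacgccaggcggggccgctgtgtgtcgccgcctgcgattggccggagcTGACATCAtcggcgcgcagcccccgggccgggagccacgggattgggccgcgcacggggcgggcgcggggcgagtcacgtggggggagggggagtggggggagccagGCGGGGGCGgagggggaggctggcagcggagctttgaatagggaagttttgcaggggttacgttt

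*IER3*, an early response gene that modulates ERK and AKT signalling and cell survival, was at the limit of these data. Its FPKM was 0.209, 0.0827 and 0.0517 with PBS and 0.0263, 0.107 and 0.0987 with PP. These values rest on 8, 3 and 2 counts and on 1, 4 and 4 counts, and the treatments overlapped. With a mean under 0.1 FPKM it was not tested, and no difference was detectable at this depth.

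**Figure D2:**
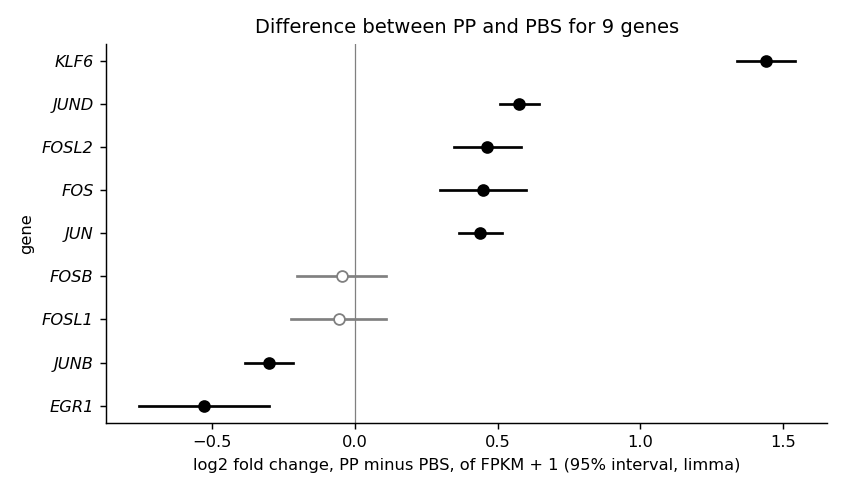
Log2 fold change of FPKM + 1 (PP against PBS) of the 9 genes with a mean of at least 0.1 FPKM, with 95% intervals from limma; filled points had an adjusted p under 0.05. *KLF6* stands apart at 1.44, *JUND*, *FOSL2*, *FOS* and *JUN* lie between 0.44 and 0.58, the intervals of *FOSB* and *FOSL1* include 0, and *JUNB* and *EGR1* lie at -0.30 and -0.53.

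The order of levels was nearly the same under both treatments. With PBS it ran from *JUND* through *JUN*, *JUNB*, *KLF6*, *FOSL2*, *FOS*, *EGR1*, *FOSL1* and *FOSB* to *IER3*, and the libraries of neighbours in this order did not overlap down to *EGR1*. With PP, *KLF6* (36.5 to 40.4 FPKM) passed above *JUNB* (30.2 to 31.7 FPKM), also without overlap, and all other ranks were kept. *FOSL1* and *FOSB* overlapped under both treatments, and *FOSB* and *IER3* overlapped with PBS but not with PP. Among the 11726 genes tested, *JUND* and *JUN* were expressed more highly than 97.6% and 96.1%, *JUNB* than 83.2%, *KLF6* than 76.4%, *FOSL2* than 34.4%, *FOS* than 26.8% and *EGR1* than 4.14%, by their mean over the 6 libraries.

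Rapid turnover of these transcripts is usually ascribed to AU-rich elements, which ELAV proteins, ELAVL3 among them, can bind. In the 3′ untranslated stretch of the canonical GENCODE transcript, the pentamer ATTTA was present in all 10 genes, against 73.2% of tested genes with an annotated stretch. *FOS* had 5 in 809 bases, *IER3* 6 in 740, *FOSL2* 9 in 4872 and *KLF6* 6 in 3546, and *JUNB* had 2 in 503. Per kilobase this came to 6.18 for *FOS*, 8.11 for *IER3*, 3.98 for *JUNB*, 1.85 for *FOSL2* and 1.69 for *KLF6*, where the median of tested genes was 1.71. The longer TTATTTATT occurred in *FOS* and *FOSL2* and in 9.57% of tested genes. The other 5 genes had 2.33 (*JUN*), 1.38 (*FOSB*), 1.33 (*JUND*), 1.19 (*FOSL1*) and 0.816 (*EGR1*) per kilobase. Any part of these elements in the changes with PP was not tested.

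Proteins that bind such elements were examined next. Of 17 listed, 15 were tested, with 7 higher, 3 lower and 5 that did not pass. The share called was 66.7%, against 72.5% of all tested genes, and the median log2 fold change was 0.08, against 0.02. The highest were *ZFP36L2* at 0.76, *ZFP36L1* at 0.58 and *ZFP36* at 0.37, the 3 members of the tristetraprolin family, which recruit the deadenylation machinery to AU-rich transcripts. *TIA1* (-0.33), *YBX1* (-0.26) and *KHSRP* (-0.08) were the lowest that passed, *KHSRP* with an adjusted p of 0.0494 from limma. The number lower was 2 when any 1 library other than PP replicate 3 was left out. *ELAVL3*, the study's target, had an FPKM of 0.900, 0.798 and 0.912 with PBS and of 0.789, 1.03 and 1.35 with PP. Its libraries overlapped between treatments, and its mean of 0.964 FPKM fell short of the 1 FPKM needed for the main test. Its value in the fit with the lower filter is not reported here.

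Other bZIP proteins can replace FOS or JUN in AP-1, and *ATF3* among them changed more than any FOS or JUN gene. Of 13 listed, 10 were tested, with 7 higher (70%, against 38.1% of all tested genes) and 2 lower (20%, against 34.4%). The median log2 fold change was 0.34, against 0.02 over all tested genes. Because this list was chosen with earlier results of these data known, these shares are a description of the listed genes only. *ATF3*, a stress-induced partner of JUN proteins that often represses, had an FPKM of 18.1, 19.7 and 19.4 with PBS and of 134.4, 134.5 and 128.2 with PP. With PBS it was below *JUNB*, and with PP its range overlapped that of *JUN* (126.9 to 130.3 FPKM). *MAFF*, a small MAF protein, rose by 0.61 and *BATF3* by 0.59 on the log2 scale. *MAFA*, a large MAF protein, fell by 0.78 and *ATF7*, a relative of ATF2, by 0.14, the latter with an adjusted p of 0.0351 from limma. When any 1 of the libraries other than PP replicate 3 was left out, 1 of the 10 was lower.

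In the wider set of immediate early genes, more members were higher than lower. Of 33 listed, 26 were tested, with 18 higher (69.2%, against 38.1% of all tested genes), 2 lower (7.69%, against 34.4%) and 6 that did not pass. The share called in either direction, 76.9%, was near the 72.5% of all tested genes. Their median log2 fold change was 0.38, against 0.02. Earlier results of these data were known when this list was chosen too, so its larger share of higher genes is descriptive only. The highest were *MYC* at 2.77, *PPP1R15A*, a phosphatase subunit of the stress response, at 2.53 and *GADD45B*, a p38 regulator induced by stress, at 1.79. *SGK1*, a kinase induced by serum and glucocorticoids, and *BTG2*, an antiproliferative gene, were the 2 that fell, by 1.24 and 0.44 on the log2 scale. *ZFP36*, *ZFP36L1* and *ZFP36L2* belong to this list as well as to that of the AU-rich element binding proteins, and they count among the higher genes of both. The 7 that were not tested for low levels were *EGR2*, *EGR3*, *EGR4*, *ARC*, *NPAS4*, *NR4A3* and *PTGS2*, several of which are strongly induced by ERK in other cells. At a filter of 0.1 FPKM, 31 were tested and 21 were higher, where 4736 of all 13771 genes fitted at that filter were higher.

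**Figure D3:**
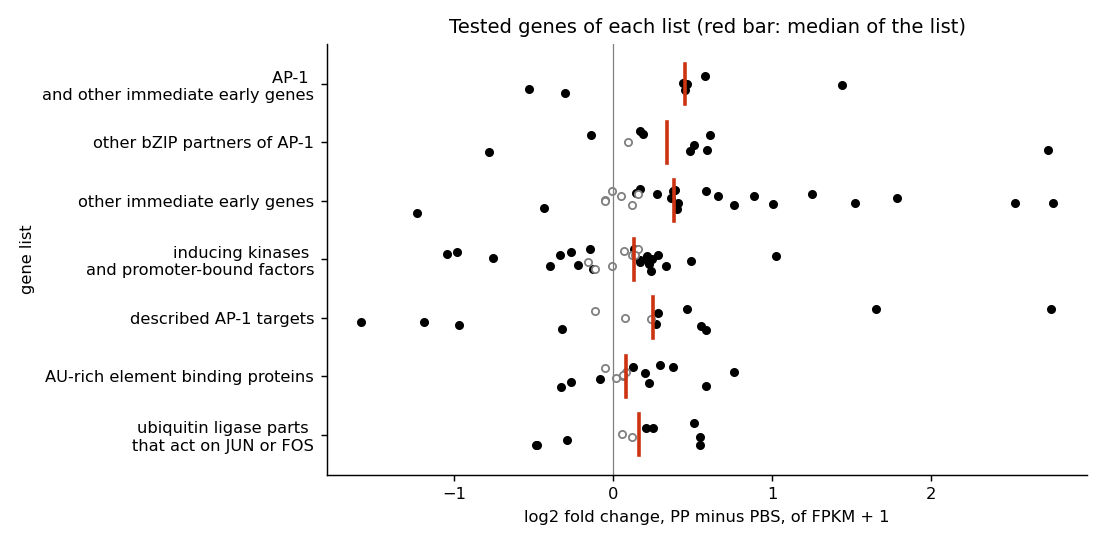
Log2 fold change of FPKM + 1 (PP against PBS) of every tested gene of 7 lists, with 1 point per gene (filled where the adjusted p was under 0.05), a red bar at the median and random vertical spread. The medians lie between 0.08 and 0.45, the lists overlap widely, and each list has genes on both sides of 0.

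Kinases and factors that lead to these promoters were called about as often as other genes. Of 32 listed, 29 were tested, with 13 higher and 9 lower, so that 75.9% were called, against 72.5% of all tested genes. The median log2 fold change was 0.13. *RPS6KA2*, a ribosomal S6 kinase downstream of ERK, rose by 1.02, *CREBBP*, a coactivator of CREB and AP-1, by 0.49, and the CREB coactivator *CRTC2* by 0.33. At the other end *MAPK13* (p38δ) fell by 1.04, *CRTC1* by 0.98 and *MAPK11* (p38β) by 0.76. The FPKM of *MAPK13* was 74.3, 77.3 and 77.3 with PBS and 35.5, 36.5 and 37.5 with PP, so it was lower in each PP library. Transcript levels do not show whether these kinases were active.

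Degradation of JUN and FOS proteins runs through ubiquitin ligases, of which 10 parts were listed and tested. Of these, 5 were higher and 3 lower, which at 80% was near the 72.5% of all tested genes, and the median log2 fold change was 0.16. *DET1* (0.55), an adaptor of the COP1 ligase, and *ITCH* (0.54), a ligase for JUN and JUNB, were the highest. *SKP1* (-0.49), *RBX1* (-0.48) and *DDB1* (-0.29), shared subunits of cullin ligases, were the lowest.

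Genes described as AP-1 targets included both rises and falls. Of 26 listed, 24 were found and 14 were tested, with 7 higher (50%, against 38.1% of all tested genes), 4 lower (28.6%, against 34.4%) and 3 that did not pass. The median log2 fold change was 0.25, against 0.02 over all tested genes. As with the other lists, the genes were chosen with earlier results of these data known. *AREG*, an EGF receptor ligand, had the highest value at 2.75, followed by *HMOX1*, a haem-degrading enzyme of the oxidative stress response, at 1.65 and *LAMA3*, a laminin chain, at 0.59. *TGFB1* (-1.59), the protease gene *PLAU* (-1.19) and the metallothionein gene *MT2A* (-0.97) were the lowest. For *PLAU*, whose enhancer is a textbook AP-1 element, the FPKM was 127.6, 127.3 and 130.2 with PBS and 56.8, 56.5 and 54.1 with PP. Every PP library was below every PBS library, opposite in direction to *JUN*, *JUND*, *FOS* and *FOSL2*.

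The genes whose pattern was most like that of *KLF6* were taken as those with the smallest root mean square distance to it over the 6 libraries, on log2(FPKM + 1) relative to the PBS mean. They were *CPED1* (distance 0.022), *ZFAND1* (0.026), *HOXD8* (0.032), *COBLL1* (0.034) and *IDH1* (0.036). For *EGR1*, the gene with the largest fall, they were *TMEM145* (0.053), *DLX4* (0.068), *ADSS1* (0.069), *APRT* (0.070) and *ATPSCKMT* (0.071). With libraries of only 2 treatments such a distance mostly reflects the size of the difference between treatments on the log2(FPKM + 1) scale. That scale compresses differences at low levels, so near genes can differ in fold change. Mean FPKM went from 1.19 with PBS to 5.01 with PP for *CPED1*, and from 13.4 to 38.1 for *KLF6*. For *TMEM145* it went from 13.6 to 9.13, and for *EGR1* from 1.89 to 0.999.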

How the data were processed

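PolyA-selected RNA libraries of NCI-H660 cells (PBS or PP, day 3, 3 libraries each) were analysed from 1 table of FPKM values that the authors deposited by gene symbol. The submitters' notes name fastp, HISAT2 and HTSeq with GRCh38, whereas the paper's methods name Bowtie with hg19, RSEM and Cufflinks, and the conflict could not be settled here. Versions and the use of strand in counting are not given in the sources used here. The values give gene lengths only up to a common scale, which was set by the RefSeq lengths of *JUNB* (1830 bases) and *JUND* (1929 bases). On that scale the length implied for *JUN* was 3257 bases, equal to its RefSeq gene length. For *JUNB* and *JUND* only the ratio of their lengths was compared with RefSeq. No column was left unmapped. The paper is not uniform on replicates, since a figure legend for these treatments speaks of 3 independent samples and the methods of duplicates, and no source used here says that they were separate cultures. P values then measure only the spread between these libraries, which may be technical.

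Within a gene the FPKM values were whole multiples of a step, from which counts were recovered (tolerance 0.01). Genes with a mean of at least 1 FPKM were fitted on log2(FPKM + 1) with limma 3.58.1 (lmFit, eBayes with an intensity trend, R 4.3.3), with Benjamini-Hochberg adjustment of P values. Members between 0.1 and 1 FPKM were taken from a fit with the lower filter. The fits were tested on simulated data. Alternatives varied the pseudocount, filter, scaling, trend, libraries, block and unit (limma-voom on recovered counts). The members and lists were chosen with earlier results of these data known. All members are named, with up to 3 of the highest and 3 of the lowest called genes of each list; *PLAU*, *ATF3*, *MAPK13* and *ELAVL3* were given by library after their values were seen. TGACATCA and the AU-rich motifs were added after seeing the data. Motif and figure steps used Python 3.11.15, RefSeq promoters (GRCh38.p14) and GENCODE transcripts mapped to GRCh37, without mixing coordinates. The replicate numbers did not pair the libraries (correlations of same-numbered deviations -0.21, -0.014 and -0.13). A planned comparison of protein sequences was not done. Values of some listed genes are not reported here.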

Additional observations from a re-analysis of the deposited data

How the results depend on the processing

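The alternatives, each with 1 setting changed or 1 library removed, gave 121 estimates in all for the 9 fitted genes. In none of these did the direction or the side of the threshold change. With genes of at least 5 FPKM, 1 of the 6 members left was lower, since *EGR1* is below that filter. The number of members that were higher was 5 under every alternative, and removing any single library left 5 higher and 2 lower. Among the AU-rich element binding proteins the number lower was 2 with the block, without the trend, at the 0.1 FPKM filter and with no filter. Among the other bZIP partners the number lower was 1 with the replicate number as a block and 1 to 2 with each library left out. With median-ratio scaling the median log2 fold change of all genes moved from 0.02 to 0.00, and no member changed its call. The replicate block, with a log2 fold change of 1.44 for *KLF6* (adjusted p = 1.86e-07 from limma), changed no other count given here by more than 1.5 times. Depth limits *FOSB*, *FOSL1* and *IER3*, with at most 39 counts in any library, and the trend over dose or time cannot be seen with 1 day and 2 treatments.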
